A study of Homo sapiens with 12 samples.

Results

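Interferon-stimulated genes are the genes a cell switches on when interferon, a secreted antiviral signal, reaches its receptor. Type I interferons act through the kinases JAK1 and TYK2, which activate STAT proteins; STAT2 and IRF9 belong to the complex ISGF3, and ISGF3 binds a DNA sequence called the interferon-stimulated response element (ISRE) upstream of its targets. Interferon gamma acts through a second sequence, the gamma-activated site (GAS), and tumour cells can also keep part of the program active without added interferon. The set held 41 genes chosen by symbol (ISGF3 subunits and interferon regulatory factors, RNA sensors, the IFIT, OAS and MX families, the ISG15 system and further effectors), and each of the 41 was found on exactly 1 of the 31585 distinct gene loci of the expression table. Of these, 35 passed the filter for testing, FPKM of at least 1 in at least 3 of the 12 libraries, as did 15055 loci in all. FPKM is the number of fragments scaled to transcript length and to the mapped fragments of the library, so that levels are per transcript length and can be set side by side between genes.

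A375, a human melanoma cell line, was transduced with a retrovirus and selected with hygromycin, and RNA was sequenced from 4 stable lines, each plated 3 times. Control cells carried the empty MSCV-IRES-Hygro vector; the other lines carried the same vector with a human YAP mutant, namely YAP-S127A, YAP-S94A,S127A, or YAP-S127A,S381A (YAP2SA). YAP is a transcriptional coactivator that the kinases LATS1 and LATS2 restrain by phosphorylation; S127A removes the site that holds YAP in the cytoplasm, S381A a site that marks it for degradation, and S94A the contact through which YAP binds the TEAD transcription factors. The comparisons therefore ask how far the interferon-stimulated genes moved with LATS-resistant YAP and, for YAP-S127A, whether the TEAD contact mattered. The same vector and drug were used for all 4 lines, and the records mention no added interferon and no virus other than the retroviral vector. The 3 platings of a line share its transduction, so that p-values measure the spread between platings.

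The libraries held between 20161 and 20656 loci above 0, their FPKM summed to between 790865 and 901558, and libraries of a group correlated at 0.960 to 0.975. YAP1, the gene carried by the vectors, had FPKM of 34.1, 33.04 and 172 in the Control libraries against 159 to 187 in YAP-S127A, 149 to 162 in YAP-S94A,S127A and 129.7 to 149 in YAP2SA. Control replicate 3 was therefore as high in YAP1 as the lines with a YAP vector, and the counts of called members and pathway genes against Control are also given without it. The condition field of the YAP2SA libraries lists S94A as well, as does the design text of the series, whereas their titles give S127A and S381A alone; the titles were followed. The melanocytic markers PMEL (also called SILV), MLANA, TYR, TYRP1 and DCT had FPKM under 1 in every library, and SOX10 had a mean of 263 in Control and 6.16 in YAP2SA. Of the 4 melanocytic markers that passed the filter, SOX10, S100B and S100A1 were lower in YAP2SA than in Control, and MITF was higher, with a mean of 8.59 in Control and 35.02 in YAP2SA. Summed FPKM of the 9 melanocytic markers was 365.5 to 454.3 in Control and 43.15 to 52.2 in YAP2SA, that of 4 fibroblast markers 2.69 to 4.24 against 39.4 to 48.4 (COL1A1 and PDGFRB), and that of 4 epithelial markers 164 to 200 against 1074 to 1255 (KRT18). The epithelial sums were nearly all KRT18, with means of 179 in Control and 1164 in YAP2SA. KRT19 had means of 1.27 and 0.8815, and EPCAM and CDH1 stayed under 1 FPKM in every library. Among the fibroblast markers, COL3A1 (means 0.0126 and 0.208) and DCN (0.461 and 0.178) stayed under 1 FPKM in every library. The PDGFRB locus also lists CSF1R, and the KRT19 locus JUP. The summed levels differed between YAP2SA and Control, and the part of these markers in the results below was not tested. The 5 leukocyte markers together reached at most 0.727 FPKM in any library and the 3 endothelial markers at most 0.656. In bulk RNA, fewer cells expressing a gene and less RNA per cell cannot be told apart.

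The binding sequences of the pathway were looked for upstream of the members, in RefSeq promoters (GRCh38.p14) reaching from 250 bases before to 50 bases after each start; 33 members are in that table, with 45 promoters. The ISRE core, searched as GAAANNGAA on both strands, was present for 22 of the 33 members (66.7%), against 9.86% of the 27305 genes of the table. The GAS, searched as TTCNNNGAA, which can overlap an ISRE core, was present for 11 members (33.3%) against 9.38% of genes, and the TEAD core GGAATG for 7 (21.2%) against 16.7%. The ISRE core was found in members that rose and in members that fell in YAP2SA: it lay in 12 of the 17 risen members in the table, 4 of the 5 fallen members, 2 of the 6 not called and 4 of the 5 not tested. The TEAD core lay in 3, 1, 2 and 1 of the same groups, and the GAS in 5, 2, 2 and 2. Windows of 120 bases, 150 to 31 bases before the start, are shown for 3 members that rose (ISG15, IFIT1 and OAS3) and 3 that fell (ISG20, BST2 and GBP1), because the same element stands upstream of genes that moved in opposite directions. They are printed 5′ to 3′ on the strand of the gene, with complete ISRE cores of either strand in capitals.
ISG15, chr1:1013347-1013466, + strand: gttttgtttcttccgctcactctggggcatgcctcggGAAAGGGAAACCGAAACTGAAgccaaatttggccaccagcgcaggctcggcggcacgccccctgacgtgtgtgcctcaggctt
IFIT1, chr10:89392473-89392592, + strand: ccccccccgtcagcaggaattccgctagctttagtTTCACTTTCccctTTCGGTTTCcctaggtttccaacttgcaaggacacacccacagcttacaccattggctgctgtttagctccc
OAS3, chr12:112938324-112938443, + strand: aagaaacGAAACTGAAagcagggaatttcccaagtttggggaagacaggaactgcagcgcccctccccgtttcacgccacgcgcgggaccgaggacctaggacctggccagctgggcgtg
ISG20, chr15:88638866-88638985, + strand: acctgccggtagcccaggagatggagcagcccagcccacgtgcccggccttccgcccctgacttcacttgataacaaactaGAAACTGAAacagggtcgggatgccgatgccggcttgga
BST2, chr19:17405661-17405780, - strand: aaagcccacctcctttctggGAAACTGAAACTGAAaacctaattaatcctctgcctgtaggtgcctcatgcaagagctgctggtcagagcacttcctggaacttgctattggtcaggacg
GBP1, chr1:89065239-89065358, - strand: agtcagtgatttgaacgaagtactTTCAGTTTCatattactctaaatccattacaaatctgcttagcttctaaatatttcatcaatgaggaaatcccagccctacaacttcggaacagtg

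ISG15 held 3 overlapping cores that begin 113, 107 and 101 bases before its start, and IFIT1 held 2, at 115 and 102 bases, on the opposite strand. BST2 held 2 overlapping cores, at 130 and 124 bases. OAS3, ISG20 and GBP1 held 1 each, at 143, 69 and 126 bases, that of GBP1 on the opposite strand. A match of letters is a description of the sequence and not a measured binding site.

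Against Control, most members that moved in YAP2SA cells rose, and the few that fell included the largest changes of the set. With limma and Benjamini-Hochberg adjustment over all loci tested, 19 of the 35 tested members were higher in YAP2SA than in Control at an adjusted p under 0.05, 7 were lower and 9 were not called. Over all 15055 loci the same test called 22.9% higher and 19.5% lower. The 19 risen members (54.3% of those tested) stand against a background of 22.9%, whereas the 7 fallen members (20.0%) are at the background share. The members were chosen with earlier results of these data known, so this contrast describes the set and is not a test of it. The median log2 fold change of the 35 members was 0.30, against 0.008 over all loci, on the log2(FPKM + 1) scale, which understates changes of genes with low FPKM. Most rises were small: when a ratio of group mean FPKM over 2 was also asked, 4 members were higher (IFIT2, IFIT3, ISG15 and TRIM22) and 3 were lower (BST2, ISG20 and GBP2), against 7.59% and 7.86% of all loci. TRIM22 passed the filter through the 3 YAP2SA libraries alone and therefore had to differ. Without it, 18 of 34 members were higher, 7 were lower and the median was 0.30. The higher members with a ratio over 2 were then IFIT2, IFIT3 and ISG15. Without Control replicate 3, 16 members (45.7%) were higher and 6 (17.1%) lower, where 19.8% and 17.2% of all loci were called. Of these members, 4 and 3 had a ratio over 2, as had 1140 and 1099 of the 15055 loci.

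YAP-S127A moved few members. IFIT3 and OAS3 were higher than in Control and ISG20 and GBP2 were lower, 2 (5.71% of those tested) in each direction, where 4.56% of all loci were higher and 1.75% lower. The median log2 fold change was 0.058 (-0.002 over all loci), 7 members had an unadjusted p under 0.05, and no member passed the 2-fold ratio. YAP-S94A,S127A, which cannot contact TEADs, had 0 members higher and 0 lower than Control by limma, where 0.0864% of all loci were higher and 0.093% lower. In that comparison 2 members, ISG20 and GBP1, had an unadjusted p under 0.05, and the median log2 fold change was 0.005. The shares of all loci with an unadjusted p under 0.05 are not given. In the fit of the 6 libraries compared, none of the 4 calls of YAP-S127A passed (adjusted p = 0.0648 for IFIT3, 0.0516 for OAS3, 0.0576 for ISG20 and 0.111 for GBP2). Without Control replicate 3, YAP-S127A had 2 members (5.71%) higher and 1 (2.86%) lower, where 3.39% and 1.1% of all loci were called. YAP-S94A,S127A had 0 in each direction, where 0.0864% and 0.126% of all loci were called.

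**Figure D1:**
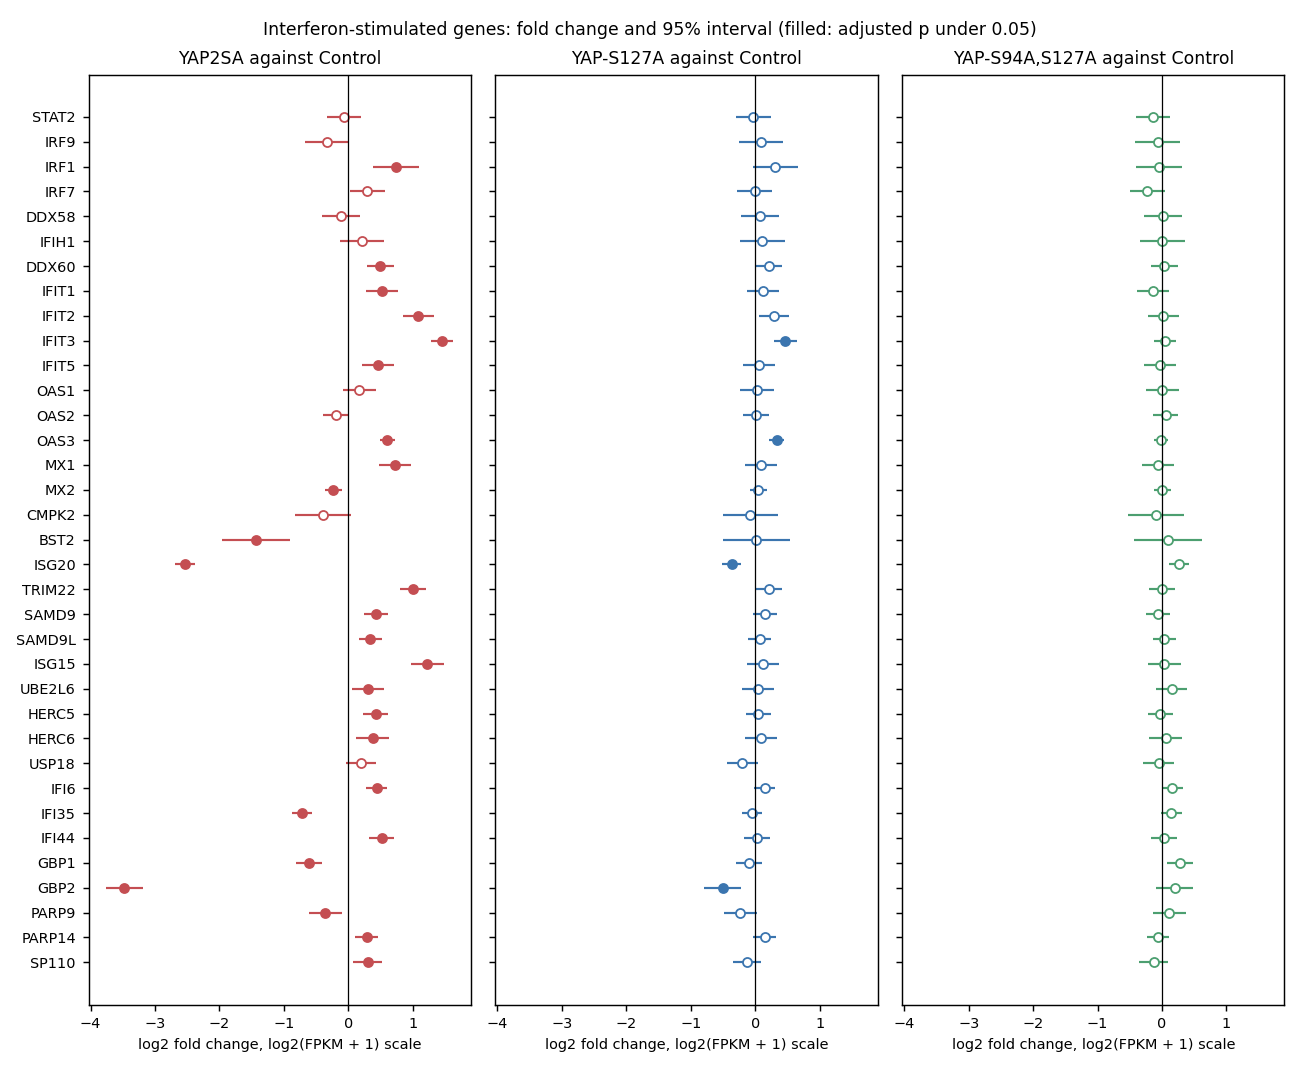
Log2 fold change of the 35 tested members on the log2(FPKM + 1) scale (x axis) for YAP2SA, YAP-S127A and YAP-S94A,S127A against Control, with 3 libraries a group. Points are limma estimates, bars 95% intervals, and filled points have an adjusted p under 0.05: 26 members in YAP2SA, 4 in YAP-S127A and 0 in YAP-S94A,S127A, with GBP2 and ISG20 lowest and IFIT3 and ISG15 highest in YAP2SA. TRIM22 is among the 26, but it passed the filter through the YAP2SA libraries alone and had to differ.

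Of the 4 transcription factors among the members, IRF1 was called in YAP2SA against Control and STAT2, IRF9 and IRF7 were not. STAT2, a subunit of ISGF3, had FPKM of 10.3, 11.9 and 12.9 in the Control libraries, 9.61, 11.2 and 10.6 in YAP-S94A,S127A, 11.5, 12.99 and 9.89 in YAP-S127A and 10.1, 12.9 and 10.4 in YAP2SA. The 4 groups overlapped, and the log2 fold change of YAP2SA against Control was -0.063 ± 0.12 (SE), adjusted p = 0.71, with a 95% interval of -0.33 to 0.20. IRF9, the DNA-binding subunit of ISGF3, had FPKM of 13.4, 12.1 and 12.4 in the Control libraries, 13.3, 10.3 and 12.5 in YAP-S94A,S127A, 11.3, 12.1 and 17.9 in YAP-S127A and 9.17, 11.2 and 9.14 in YAP2SA. Its 3 YAP2SA libraries lay below the Control libraries, but the difference did not pass the test (log2 fold change -0.33 ± 0.16 (SE), adjusted p = 0.11), YAP-S127A replicate 3 stood above all other libraries, and the locus also lists RNF31, a ubiquitin ligase subunit that shares its reads. IRF7, which amplifies interferon production, had FPKM of 3.69, 2.57 and 2.97 in the Control libraries, 2.49, 2.43 and 2.46 in YAP-S94A,S127A, 2.49, 3.36 and 3.27 in YAP-S127A and 3.598, 3.77 and 4.53 in YAP2SA. YAP2SA and Control overlapped (log2 fold change 0.29 ± 0.12 (SE), adjusted p = 0.0808), while YAP2SA lay above YAP-S94A,S127A (log2 fold change 0.52 ± 0.12 (SE), adjusted p = 0.00585).

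IRF1, a factor induced by interferon gamma and by inflammatory signals, had FPKM of 6.73, 6.15 and 6.46 in the Control libraries, 5.902, 5.94 and 6.84 in YAP-S94A,S127A, 7.02, 6.87 and 11.5 in YAP-S127A and 12.9, 10.5 and 11.1 in YAP2SA. It was 1.78-fold higher in YAP2SA than in Control, with no overlap of the groups (log2 fold change 0.74 ± 0.16 (SE), adjusted p = 0.0034). Replicate 3 of YAP-S127A, at 11.5 FPKM, stood apart from the other libraries of its line and within the range of YAP2SA, and neither YAP-S127A against Control (adjusted p = 0.32) nor YAP2SA against YAP-S127A (adjusted p = 0.0638) was called.

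Of the 3 members grouped as RNA sensors, DDX60 alone was called in YAP2SA against Control, and the sensors DDX58 and IFIH1 were not. DDX60, a helicase that works beside the sensors, had FPKM of 0.904, 0.892 and 1.09 in the Control libraries, 1.03, 0.993 and 1.01 in YAP-S94A,S127A, 1.45, 1.304 and 1.05 in YAP-S127A and 1.97, 1.72 and 1.61 in YAP2SA. Its YAP2SA libraries lay above the other 9, at a log2 fold change of 0.50 ± 0.093 (SE), adjusted p = 0.00144 against Control. DDX58 (RIG-I) had mean FPKM of 1.28 in Control, 1.29 in YAP-S94A,S127A, 1.38 in YAP-S127A and 1.095 in YAP2SA, and IFIH1 (MDA5) of 1.42 in Control, 1.44 in YAP-S94A,S127A, 1.64 in YAP-S127A and 1.802 in YAP2SA; their log2 fold changes of -0.11 (95% interval -0.41 to 0.18) and 0.21 (-0.14 to 0.56) in YAP2SA against Control were not called.

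The 4 IFIT genes, whose proteins bind viral RNA and block its translation, all rose in YAP2SA, and IFIT3 had the largest log2 fold change among the 19 risen members. IFIT3 had FPKM of 4.65, 4.12 and 5.14 in the Control libraries, 4.796, 4.83 and 4.75 in YAP-S94A,S127A, 6.78, 7.04 and 6.54 in YAP-S127A and 15.3, 13.3 and 14.8 in YAP2SA. The libraries fell into 3 levels, with Control and YAP-S94A,S127A together at the bottom, YAP-S127A between and YAP2SA on top. YAP2SA was 3.12-fold above Control (log2 fold change 1.46 ± 0.078 (SE), adjusted p = 1.1e-07) and YAP-S127A 1.46-fold (log2 fold change 0.47 ± 0.078 (SE), adjusted p = 0.00468). IFIT2 had FPKM of 0.867, 1.29 and 1.35 in the Control libraries, 0.985, 1.22 and 1.39 in YAP-S94A,S127A, 1.502, 1.69 and 1.75 in YAP-S127A and 3.497, 3.52 and 3.75 in YAP2SA. The order was the same and YAP2SA stood 3.07-fold above Control (log2 fold change 1.09 ± 0.11 (SE), adjusted p = 1.4e-05), but YAP-S127A against Control, although its libraries lay above those of Control, did not pass the test (log2 fold change 0.29 ± 0.11 (SE), adjusted p = 0.159).

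IFIT1 had FPKM of 2.39, 2.36 and 2.504 in the Control libraries, 2.33, 2.18 and 1.79 in YAP-S94A,S127A, 2.32, 2.72 and 3.14 in YAP-S127A and 3.38, 3.92 and 4.46 in YAP2SA. IFIT5 had FPKM of 13.2, 17.7 and 15.6 in the Control libraries, 13.5, 16.6 and 15.1 in YAP-S94A,S127A, 14.6, 18.1 and 15.6 in YAP-S127A and 20.6, 22.3 and 21.8 in YAP2SA. For both, the 3 YAP2SA libraries lay above the other 9, which overlapped among themselves; the log2 fold changes against Control were 0.52 ± 0.11 (SE), adjusted p = 0.00328 for IFIT1 and 0.46 ± 0.11 (SE), adjusted p = 0.00684 for IFIT5. The IFIT5 locus also lists IFIT1B, and how reads that align to several of these related genes were divided is not given in the sources used here, so that the split of reads among the IFIT genes is uncertain.

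**Figure D2:**
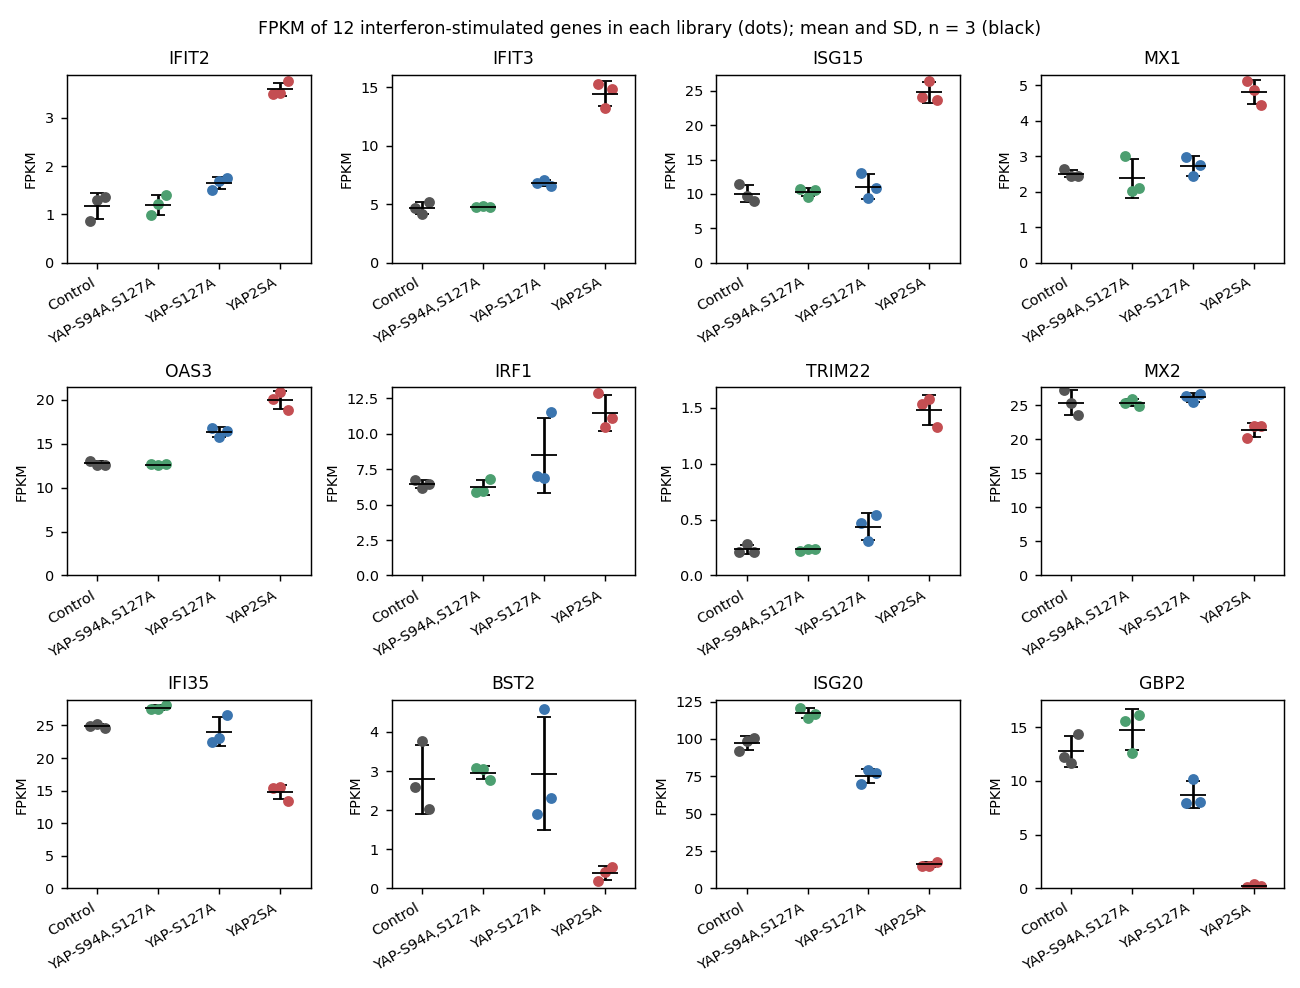
FPKM (y axis, from 0) of 12 members in each library, by group; dots are libraries, black bars the mean and SD of 3. IFIT3 and OAS3 stand at 3 levels and YAP2SA lies above the other groups for IFIT2, ISG15, MX1 and TRIM22, below them for MX2, IFI35, BST2, ISG20 and GBP2, and for IRF1 1 YAP-S127A library (FPKM 11.5) reaches the YAP2SA range.

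Of the OAS family, whose enzymes sense double-stranded RNA, OAS3 alone was called against Control. OAS3 had FPKM of 13.01, 12.6 and 12.6 in the Control libraries, 12.7, 12.5 and 12.7 in YAP-S94A,S127A, 16.8, 15.7 and 16.5 in YAP-S127A and 20.1, 20.9 and 18.8 in YAP2SA. As with IFIT3, YAP-S127A lay between, above Control (log2 fold change 0.33 ± 0.051 (SE), adjusted p = 0.00282), and YAP2SA lay above YAP-S127A (log2 fold change 0.27 ± 0.051 (SE), adjusted p = 0.00194) and 1.56-fold above Control (log2 fold change 0.61 ± 0.051 (SE), adjusted p = 3.8e-06). OAS1 had mean FPKM of 3.601 in Control, 3.64 in YAP-S94A,S127A, 3.702 in YAP-S127A and 4.17 in YAP2SA, with a log2 fold change of 0.17 (95% interval -0.089 to 0.43) in YAP2SA against Control that was not called. OAS2 had mean FPKM of 1.45 in Control, 1.56 in YAP-S94A,S127A, 1.47 in YAP-S127A and 1.14 in YAP2SA; it was not called against Control (log2 fold change -0.20 ± 0.088 (SE), adjusted p = 0.103) and was lower in YAP2SA than in YAP-S94A,S127A (log2 fold change -0.25 ± 0.088 (SE), adjusted p = 0.0398), a call that 9 of 20 alternative settings lost, the omission of Control replicate 3, YAP-S127A replicate 1, YAP-S94A,S127A replicate 2 or any YAP2SA library among them.

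The dynamin-like MX proteins, which block incoming viruses, moved in opposite directions. MX1 had FPKM of 2.63, 2.44 and 2.45 in the Control libraries, 3.02, 2.01 and 2.104 in YAP-S94A,S127A, 2.99, 2.43 and 2.75 in YAP-S127A and 5.11, 4.86 and 4.46 in YAP2SA. MX2 had FPKM of 27.3, 25.4 and 23.6 in the Control libraries, 25.4, 26.0 and 24.9 in YAP-S94A,S127A, 26.4, 25.5 and 26.7 in YAP-S127A and 20.2, 21.9 and 21.98 in YAP2SA. For MX1 the YAP2SA libraries lay above the other 9 and the mean was 1.92-fold that of Control (log2 fold change 0.73 ± 0.11 (SE), adjusted p = 3.9e-04), whereas for MX2 they lay below the other 9, at a log2 fold change of -0.24 ± 0.059 (SE), adjusted p = 0.00814. The fall of MX2 was the smallest among the 7, 1.19-fold.

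BST2 and ISG20 fell most among the other effectors. ISG20, an exonuclease that degrades single-stranded RNA, had the highest FPKM of all 41 members in Control, and its 12 values were 92.3, 98.5 and 101 in the Control libraries, 121, 114 and 117 in YAP-S94A,S127A, 70.01, 78.9 and 76.9 in YAP-S127A and 15.02, 15.2 and 17.6 in YAP2SA. The 4 groups did not overlap: YAP2SA was 6.10-fold below Control (log2 fold change -2.54 ± 0.069 (SE), adjusted p = 9.7e-10), YAP-S127A was 1.29-fold below it (log2 fold change -0.37 ± 0.069 (SE), adjusted p = 0.00976), and YAP-S94A,S127A lay above Control without passing the test (log2 fold change 0.27 ± 0.069 (SE), adjusted p = 0.615). BST2 (tetherin), which holds budding virus particles at the cell surface, had FPKM of 2.59, 3.76 and 2.02 in the Control libraries, 3.08, 3.04 and 2.76 in YAP-S94A,S127A, 1.91, 4.59 and 2.299 in YAP-S127A and 0.182, 0.428 and 0.536 in YAP2SA. It was 7.30-fold lower in YAP2SA than in Control (log2 fold change -1.44 ± 0.24 (SE), adjusted p = 6.1e-04), and the other 3 groups overlapped, with replicate 2 of YAP-S127A the highest library. CMPK2, a mitochondrial nucleotide kinase, had mean FPKM of 1.83 in Control, 1.64 in YAP-S94A,S127A, 1.66 in YAP-S127A and 1.13 in YAP2SA, and its log2 fold change of -0.39 (95% interval -0.82 to 0.036) in YAP2SA against Control was not called.

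TRIM22, a ubiquitin ligase with antiviral activity, had FPKM of 0.208, 0.282 and 0.207 in the Control libraries, 0.2201, 0.236 and 0.241 in YAP-S94A,S127A, 0.465, 0.306 and 0.541 in YAP-S127A and 1.53, 1.58 and 1.33 in YAP2SA. It reached 1 FPKM in the YAP2SA libraries alone, where its mean was 6.37-fold that of Control (log2 fold change 1.01 ± 0.092 (SE)). It passed the filter through these libraries alone and therefore had to differ, so no p-value is given. Its locus also lists the olfactory receptor OR56B1. SAMD9, a growth-restraining protein with antiviral activity, had FPKM of 4.41, 4.43 and 4.75 in the Control libraries, 3.99, 4.25 and 4.67 in YAP-S94A,S127A, 5.26, 5.74 and 4.47 in YAP-S127A and 6.49, 6.18 and 6.701 in YAP2SA. Its neighbour and relative SAMD9L had FPKM of 1.53, 1.38 and 1.57 in the Control libraries, 1.49, 1.45 and 1.71 in YAP-S94A,S127A, 1.49, 1.83 and 1.55 in YAP-S127A and 2.14, 2.23 and 2.08 in YAP2SA. For both the YAP2SA libraries lay above the other 9, with log2 fold changes against Control of 0.43 ± 0.086 (SE), adjusted p = 0.00209 for SAMD9 and 0.34 ± 0.081 (SE), adjusted p = 0.00619 for SAMD9L.

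In the ISG15 system, a ubiquitin-like tag with its conjugating and removing enzymes, the tag itself rose most. ISG15 had FPKM of 11.4, 9.76 and 8.98 in the Control libraries, 10.8, 9.55 and 10.5 in YAP-S94A,S127A, 13.1, 9.34 and 10.8 in YAP-S127A and 24.1, 26.5 and 23.7 in YAP2SA. YAP2SA stood 2.47-fold above Control with no overlap (log2 fold change 1.23 ± 0.12 (SE), adjusted p = 9.1e-06), and YAP-S127A overlapped Control (log2 fold change 0.12 ± 0.12 (SE), adjusted p = 0.626). HERC5, the main ligase that attaches ISG15, had FPKM of 2.25, 1.86 and 1.601 in the Control libraries, 1.89, 1.79 and 1.83 in YAP-S94A,S127A, 2.05, 1.89 and 2.02 in YAP-S127A and 2.85, 3.03 and 2.79 in YAP2SA. It rose by a log2 fold change of 0.43 ± 0.087 (SE), adjusted p = 0.00243 in YAP2SA.

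UBE2L6, the conjugating enzyme for ISG15 and the tested member with the second highest mean FPKM, had mean FPKM of 44.6 in Control, 49.5 in YAP-S94A,S127A, 46.3 in YAP-S127A and 55.5 in YAP2SA. Its rise in YAP2SA was close to the threshold (log2 fold change 0.30 ± 0.11 (SE), adjusted p = 0.0474), the adjusted p ranged from 0.0199 to 0.169 over 20 alternative settings, 14 of which lost the call, the omission of any single Control or YAP-S94A,S127A library, of YAP-S127A replicate 2 or of YAP2SA replicate 1 or 2 among them, and the YAP2SA libraries overlapped those of YAP-S94A,S127A and YAP-S127A. HERC6, a relative of HERC5, had mean FPKM of 1.97 in Control, 2.07 in YAP-S94A,S127A, 2.15 in YAP-S127A and 2.83 in YAP2SA. Its rise (log2 fold change 0.38 ± 0.12 (SE), adjusted p = 0.0226) was lost in 4 of 20 alternative settings (adjusted p from 0.00273 to 0.0833). These were the fit of the 6 libraries compared and the omission of Control replicate 2, Control replicate 3 or YAP2SA replicate 1. USP18, which removes ISG15 and dampens interferon receptor signalling, had mean FPKM of 4.60 in Control, 4.41 in YAP-S94A,S127A, 3.88 in YAP-S127A and 5.42 in YAP2SA; it was not called against Control (log2 fold change 0.20 ± 0.11 (SE), adjusted p = 0.166) and was higher in YAP2SA than in YAP-S127A (log2 fold change 0.40 ± 0.11 (SE), adjusted p = 0.016), a call lost without replicate 1 or 2 of YAP-S127A or replicate 2 of YAP2SA.

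Of the IFI genes tested, IFI6 and IFI44 rose and IFI35 fell. IFI6, a small membrane protein with antiviral and anti-apoptotic activity, had FPKM of 20.6, 23.5 and 21.96 in the Control libraries, 25.3, 23.2 and 25.6 in YAP-S94A,S127A, 26.1, 25.4 and 22.2 in YAP-S127A and 30.7, 31.1 and 29.02 in YAP2SA. IFI44 had FPKM of 9.75, 8.64 and 9.12 in the Control libraries, 8.77, 9.73 and 9.703 in YAP-S94A,S127A, 8.48, 10.2 and 9.498 in YAP-S127A and 15.1, 13.5 and 12.2 in YAP2SA. In both the YAP2SA libraries lay above the other 9, with log2 fold changes of 0.44 ± 0.073 (SE), adjusted p = 5.9e-04 for IFI6 and 0.52 ± 0.089 (SE), adjusted p = 8.0e-04 for IFI44 against Control. IFI35, a partner of NMI in innate signalling, had FPKM of 24.9, 25.3 and 24.6 in the Control libraries, 27.5, 27.5 and 28.1 in YAP-S94A,S127A, 22.4, 23.1 and 26.6 in YAP-S127A and 15.4, 15.5 and 13.5 in YAP2SA. It was 1.69-fold lower in YAP2SA (log2 fold change -0.72 ± 0.071 (SE), adjusted p = 1.4e-05), below the other 9 libraries.

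Both guanylate-binding GTPases, which respond foremost to interferon gamma and attack intracellular pathogens, fell in YAP2SA. GBP2 had FPKM of 12.2, 11.6 and 14.4 in the Control libraries, 15.6, 12.6 and 16.1 in YAP-S94A,S127A, 7.92, 10.2 and 8.07 in YAP-S127A and 0.103, 0.361 and 0.243 in YAP2SA. This was the largest change of the set: the mean in YAP2SA was 54.1-fold below that of Control (log2 fold change -3.48 ± 0.13 (SE), adjusted p = 7.1e-09), and the YAP2SA values were all under 1 FPKM. In YAP-S127A GBP2 was 1.46-fold below Control without overlap (log2 fold change -0.50 ± 0.13 (SE), adjusted p = 0.0456), but 14 of 20 alternative settings lost this call, the omission of any single Control library, of replicate 1 or 3 of YAP-S127A or YAP-S94A,S127A, or of replicate 2 or 3 of YAP2SA among them (adjusted p from 0.0272 to 0.27). GBP1 had FPKM of 2.87, 3.598 and 3.701 in the Control libraries, 4.22, 4.05 and 4.61 in YAP-S94A,S127A, 3.17, 3.03 and 3.05 in YAP-S127A and 1.73, 2.08 and 1.81 in YAP2SA. It was 1.81-fold lower in YAP2SA than in Control (log2 fold change -0.61 ± 0.090 (SE), adjusted p = 2.9e-04), and YAP-S94A,S127A lay above Control without passing the test (log2 fold change 0.27 ± 0.090 (SE), adjusted p = 0.864). The GBP2 locus also lists GBP7, and the division of reads between these related genes is not given in the sources used here.

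PARP14, an ADP-ribosyltransferase, had FPKM of 6.42, 6.27 and 6.73 in the Control libraries, 5.82, 6.402 and 6.27 in YAP-S94A,S127A, 6.86, 8.34 and 6.71 in YAP-S127A and 7.87, 8.49 and 7.92 in YAP2SA. Its YAP2SA libraries lay above those of Control and overlapped those of YAP-S127A (log2 fold change against Control 0.28 ± 0.080 (SE), adjusted p = 0.0151), and the call was lost without YAP2SA replicate 2 (adjusted p from 0.00419 to 0.055 over 20 alternative settings). PARP9, its partner, had mean FPKM of 7.28 in Control, 7.94 in YAP-S94A,S127A, 6.03 in YAP-S127A and 5.48 in YAP2SA. It was lower in YAP2SA than in Control (log2 fold change -0.36 ± 0.11 (SE), adjusted p = 0.0273). This call was lost in 3 of 20 alternative settings (adjusted p from 0.0114 to 0.104). These were the fit of the 6 libraries compared and the omission of Control replicate 3 or YAP2SA replicate 2. SP110, a nuclear body protein, had mean FPKM of 6.37 in Control, 5.74 in YAP-S94A,S127A, 5.73 in YAP-S127A and 8.06 in YAP2SA. It rose in YAP2SA against Control (log2 fold change 0.30 ± 0.10 (SE), adjusted p = 0.033). That call was lost in 6 of 20 alternative settings (adjusted p from 0.0139 to 0.112). These were quantile normalization and the omission of Control replicate 2 or 3 or of any single YAP2SA library.

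**Figure D3:**
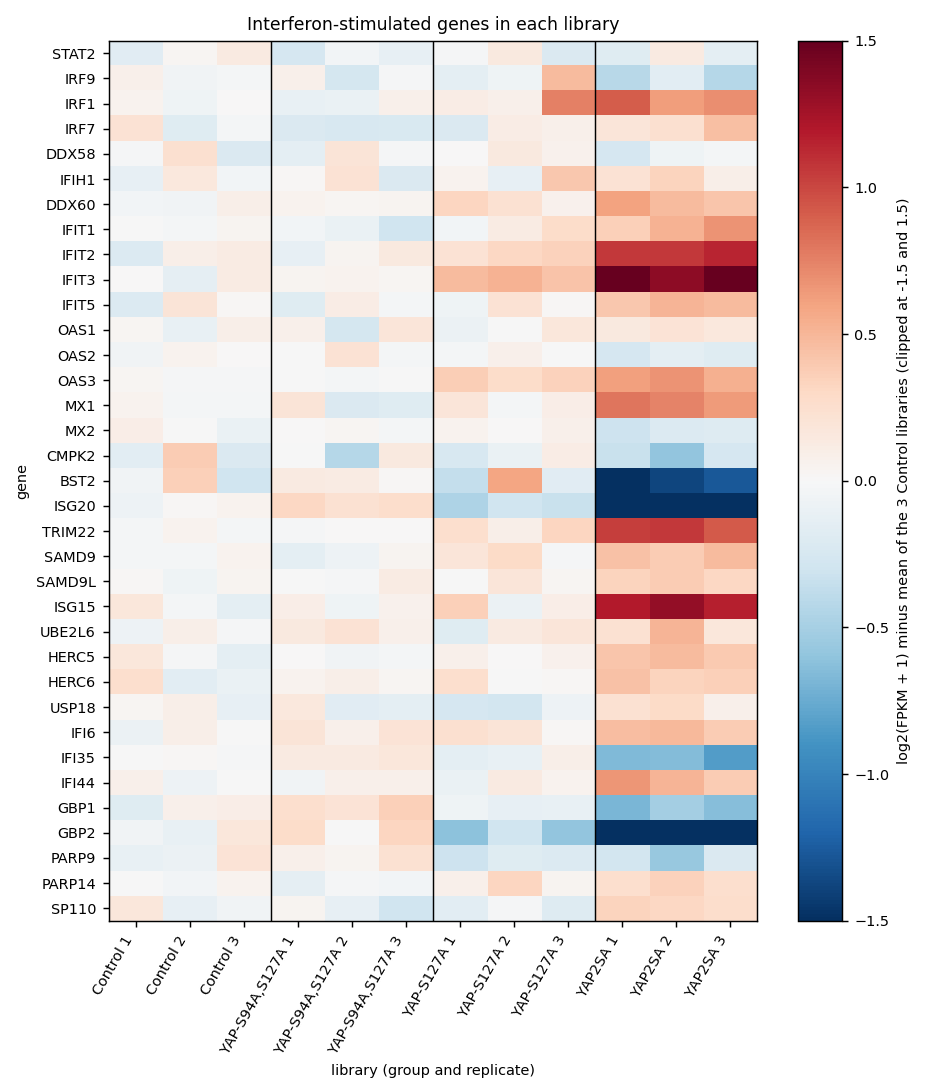
Each tested member (rows, by role) in each of the 12 libraries (columns), as log2(FPKM + 1) minus the mean of the 3 Control libraries; red is higher, blue lower, clipped at -1.5 and 1.5. The 3 YAP2SA libraries differ from the other 9 in the same rows, led by IFIT3, ISG15, IFIT2 and TRIM22 above and GBP2, ISG20 and BST2 below, and the YAP-S127A columns show IFIT3, OAS3, ISG20 and GBP2 in the same direction.

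The 6 members that did not pass the filter are antiviral genes that interferon induces strongly in many cells, and here their FPKM lay between 0 and 1.26 in all libraries. RSAD2 (viperin) had a highest FPKM of 0.106 and IFI44L of 0.146; IFI27 was listed at 0 in 5 libraries and reached 1.102 in 1 YAP-S94A,S127A library. OASL had mean FPKM of 0.286 in Control, 0.226 in YAP-S94A,S127A, 0.351 in YAP-S127A and 0.689 in YAP2SA, XAF1 of 0.301 in Control, 0.2996 in YAP-S94A,S127A, 0.299 in YAP-S127A and 0.476 in YAP2SA and EPSTI1 of 0.0892 in Control, 0.0775 in YAP-S94A,S127A, 0.251 in YAP-S127A and 0.744 in YAP2SA. These 3 had their highest mean in YAP2SA, but they did not reach the filter and no fold change is given. Levels of the tested members were modest as well: the mean FPKM over all libraries ranged from 0.595 (TRIM22) to 76.4 (ISG20), with a median of 5.11 against 9.76 over all loci tested, and 17 of the 35 had a mean under 5.

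The comparisons among the mutants concern the added S381A and the TEAD contact. Against YAP-S127A, YAP2SA had 16 members higher (45.7% of those tested) and 6 lower (17.1%), where 18.3% and 14.5% of all loci were called, with a median log2 fold change of 0.27. The higher calls of DDX60, SAMD9L, SAMD9, IFIT5, IFIT1, USP18 and IFI6 were each lost in at least 1 of 20 alternative settings. DDX60 lost its call in 9 of them. Without TRIM22, 15 of 34 members were higher and 6 lower. Against YAP-S94A,S127A, YAP2SA had 19 higher (54.3%) and 8 lower (22.9%), where 23.2% and 20.3% of all loci were called, with a median of 0.31. The higher call of HERC6 was lost in 14 of 20 alternative settings and the lower call of OAS2 in 9. Without TRIM22, 18 of 34 members were higher and 8 lower. YAP-S127A against YAP-S94A,S127A, the pair that differs by S94A alone, had 2 members higher (5.71%), IFIT3 and OAS3, and 3 lower (8.57%), ISG20, GBP1 and GBP2, where 6.36% and 4.31% of all loci were called. In that pair the log2 fold changes were 0.43 ± 0.078 (SE), adjusted p = 0.006 for IFIT3 and 0.35 ± 0.051 (SE), adjusted p = 0.00164 for OAS3. Those of the fallen genes were -0.63 ± 0.069 (SE), adjusted p = 2.3e-04 for ISG20, -0.70 ± 0.13 (SE), adjusted p = 0.00632 for GBP2 and -0.37 ± 0.090 (SE), adjusted p = 0.025 for GBP1. The GBP1 call was lost without any single YAP-S127A library or without replicate 1 or 3 of YAP-S94A,S127A, and the GBP2 call with a pseudocount of 0.1 (adjusted p = 0.0886). Apart from the 2 higher shares for YAP2SA, these shares were within 5 percentage points of the background. By the titles, S94A was combined with S127A and not with S381A, so that for members called in YAP2SA and not in YAP-S127A the part of the TEAD contact was not tested.

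The 6 comparisons share libraries, so their calls are set side by side and not counted as separate evidence. Of the 19 members higher in YAP2SA than in Control, 2 were called higher in YAP-S127A against Control, 0 in YAP-S94A,S127A against Control, 15 in YAP2SA against YAP-S127A and 18 in YAP2SA against YAP-S94A,S127A. Of the 7 lower members, the corresponding counts were 2, 0, 6 and 7. TRIM22, which had to differ, is among the 19, the 15 and the 18. The matching overlaps over all loci were not counted, so these numbers do not set the members apart from other loci. By log2 fold change on the log2(FPKM + 1) scale, the members with the steepest steps from YAP-S127A to YAP2SA were GBP2 (37.0-fold lower, log2 fold change -2.97 ± 0.13 (SE), adjusted p = 5.3e-08), ISG20 (4.72-fold lower, -2.17 ± 0.069 (SE), adjusted p = 6.4e-09) and BST2 (7.68-fold lower, -1.46 ± 0.24 (SE), adjusted p = 8.5e-04). The steepest rises on that scale were those of ISG15 (2.24-fold, log2 fold change 1.11 ± 0.12 (SE), adjusted p = 3.4e-05), IFIT3 (2.13-fold, 0.99 ± 0.078 (SE), adjusted p = 4.4e-06) and IFIT2 (2.18-fold, 0.80 ± 0.11 (SE), adjusted p = 2.3e-04). By ratio of group mean FPKM, TRIM22 rose more (3.38-fold, log2 fold change 0.79 ± 0.092 (SE)), but it passed the filter through the YAP2SA libraries alone and had to differ.

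Several members are neighbours on a chromosome, as the set holds gene families such as IFIT, OAS and MX. In the GENCODE annotation of GRCh37, the build of the deposited table, 11 pairs of members that follow one another in order along a chromosome lie less than 100 kb apart, and both genes of 9 of these pairs were tested. In YAP2SA against Control, both genes rose in 5 pairs, both fell in 1, 1 pair split and in 2 pairs at least 1 gene was not called. Without Control replicate 3, HERC6 was not called and both genes rose in 4 pairs. Neighbouring loci outside the set were not counted, and 54.3% of the tested members rose in any case. As said above, the split of reads among the IFIT genes is uncertain. The 5 risen pairs were the run IFIT2, IFIT3, IFIT1 and IFIT5 on chromosome 10 (91043451 to 91181362), HERC6 and HERC5 on chromosome 4 (89299891 to 89427314), and SAMD9 and SAMD9L on chromosome 7 (92728826 to 92777698). GBP1 and GBP2 on chromosome 1 (89517565 to 89616139) fell together. MX2 and MX1, 10.6 kb apart in the same orientation on chromosome 21 (42733926 to 42841998), split: MX2 fell (log2 fold change -0.24) and MX1 rose (0.73). Within the OAS cluster on chromosome 12, OAS3 rose and its neighbours OAS1 and OAS2, 4.83 and 1.94 kb away, were not called (log2 fold changes 0.17 and -0.20). In the other pairs, IFI44L next to IFI44 and RSAD2 overlapping CMPK2, 1 gene was below the filter.

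The steps before these genes were then examined by lists of pathway genes that are not members; FPKM in brackets are means of Control, YAP-S94A,S127A, YAP-S127A and YAP2SA, in that order. Of 10 interferon genes, 0 passed the filter; 5 were listed at 0 in every library, and the highest value of any was 0.406 FPKM, of IFNE. The receptor genes fell or were not called: of 5 loci tested, 0 were higher and 3 were lower in YAP2SA than in Control, where 22.9% of all loci were higher and 19.5% lower. These were IFNAR1 (8.82, 8.63, 8.05 and 6.01; log2 fold change -0.49 ± 0.086 (SE), adjusted p = 9.6e-04), a subunit of the type I receptor, the shared locus of IFNAR2 and IL10RB (16.4, 18.2, 15.1 and 12.5; -0.36 ± 0.058 (SE), adjusted p = 5.5e-04) and IFNGR2 (52.2, 61.6, 37.9 and 21.3; -1.26 ± 0.075 (SE), adjusted p = 2.6e-07), a subunit of the interferon gamma receptor. IFNGR2 was also lower in YAP-S127A than in Control (log2 fold change -0.45 ± 0.075 (SE), adjusted p = 0.00452).

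Of 4 kinases and STATs tested, 1 was higher and 1 was lower: JAK1 (21.2, 20.4, 22.7 and 27.1) was higher in YAP2SA than in Control, at a log2 fold change of 0.34 ± 0.056 (SE), adjusted p = 6.4e-04. STAT3 (29.98, 29.6, 27.4 and 17.6), which carries cytokine signals of the IL-6 family, was lower (log2 fold change -0.73 ± 0.064 (SE), adjusted p = 5.6e-06), and JAK2 and TYK2 were not called. Of 15 sensors and adaptors tested, 0 were higher and 4 (26.7%) were lower, the latter near the 19.5% of all loci: the DNA sensor AIM2 (7.08, 8.58, 4.63 and 0.454), the lipopolysaccharide receptor TLR4 (23.2, 24.7, 14.6 and 6.86), the adaptor TMEM173, also called STING, (13.8, 12.5, 13.7 and 6.32), and NFKB1 (24.5, 24.8, 21.7 and 13.7). AIM2 fell most, 15.6-fold (log2 fold change -2.46 ± 0.15 (SE), adjusted p = 2.5e-07), and TLR4 was also lower in YAP-S127A than in Control (log2 fold change -0.62 ± 0.14 (SE), adjusted p = 0.0259). Of 7 negative regulators tested, 4 (57.1%) were higher, where 22.9% of all loci were, and 0 lower: SOCS3 (8.37, 9.52, 12.1 and 14.8), a receptor inhibitor, PTPN2 (14.9, 14.5, 16.04 and 17.5), a phosphatase of JAKs and STATs, TRIM21 (3.897, 3.39, 4.47 and 5.34), a ubiquitin ligase, and UBA7 (1.46, 1.597, 1.93 and 2.66). UBA7 is the activating enzyme of ISG15 and does not restrain the pathway as the name of the list says, so the 57.1% describes the list as named. TRIM21 is also counted in the list of further interferon-stimulated genes below.

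**Figure D4:**
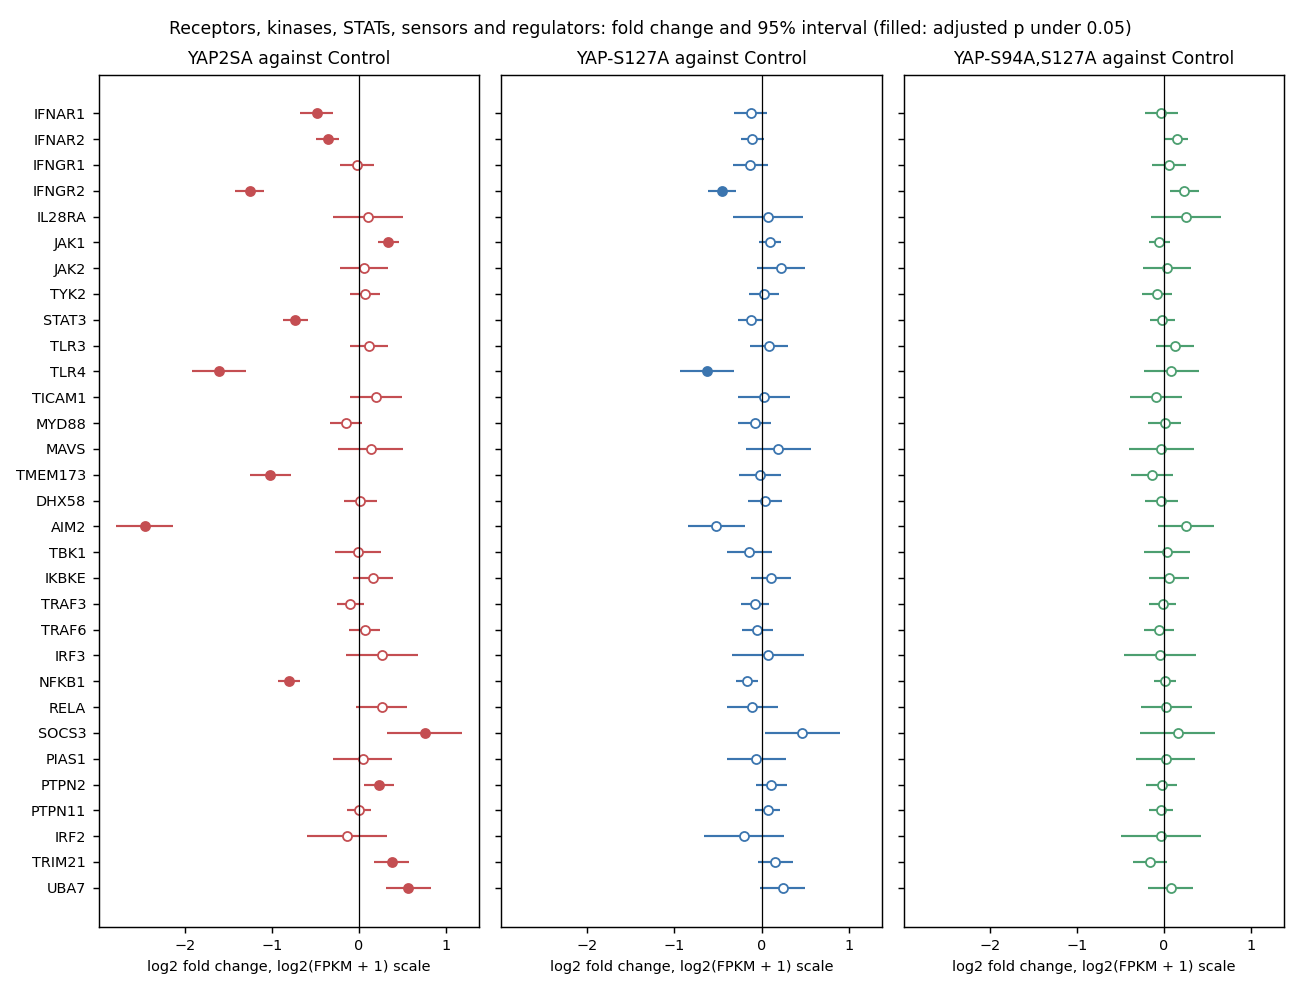
Log2 fold change on the log2(FPKM + 1) scale (x axis) of the 31 tested receptor, kinase, STAT, sensor, adaptor and regulator loci for the 3 mutants against Control; points are limma estimates, bars 95% intervals, filled points have an adjusted p under 0.05, and IFNAR2 stands for its locus shared with IL10RB. AIM2, TLR4 and IFNGR2 lie lowest in YAP2SA and SOCS3 highest, and no point is filled in YAP-S94A,S127A.

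In a list of 33 further interferon-stimulated genes more rose than fell. Of 31 tested, 16 (51.6%) were higher and 2 (6.45%) were lower in YAP2SA than in Control, where 22.9% and 19.5% of all loci were called. The median log2 fold change was 0.28, against 0.008 over all loci. This list was also chosen with earlier results of these data known, so the shares are a description. IFITM2, a membrane protein that blocks virus entry, rose most (21.6, 20.97, 37.7 and 97.5), 4.52-fold in YAP2SA (log2 fold change 2.14 ± 0.12 (SE), adjusted p = 1.3e-07), and was called in YAP-S127A as well (log2 fold change 0.80 ± 0.12 (SE), adjusted p = 0.00219). APOL1 (2.24, 1.97, 2.95 and 5.47), an apolipoprotein, and SP100 (15.9, 16.9, 17.9 and 28.3), a nuclear body protein related to SP110, rose by log2 fold changes of 1.004 ± 0.093 (SE), adjusted p = 8.2e-06 and 0.80 ± 0.079 (SE), adjusted p = 1.4e-05. Among the other risen genes were the virus entry inhibitor IFITM3 (317, 319.8, 346 and 402), the RNA-dependent kinase EIF2AK2 (20.95, 21.1, 25.2 and 28.2), also called PKR, the nuclear body protein PML (22.3, 21.5, 25.8 and 30.9) and NMI (9.61, 9.77, 9.18 and 12.9), the partner of IFI35. Others were TRIM14 (8.97, 9.29, 10.97 and 14.2), APOL2 (7.16, 6.38, 8.13 and 11.3), PARP10 (8.52, 7.96, 9.66 and 10.2), PARP12 (8.48, 8.21, 8.198 and 10.4) and PLSCR1 (17.7, 17.5, 21.5 and 23.8). The rest were IFI30 (76.3, 76.9, 78.4 and 107), TDRD7 (4.01, 3.83, 3.93 and 5.17) and HELZ2 (4.49, 4.96, 5.68 and 6.57), with TRIM21 as given above. The IFI30 locus also lists PIK3R2, which shares its reads. The risen genes from IFITM3 on are given by means alone. Which of the 16 lost the call without Control replicate 3 is not given. The 2 that fell were the DNA sensor IFI16 (52.6, 53.8, 48.7 and 37.7) and SLFN5 (7.15, 7.61, 7.196 and 4.91), at log2 fold changes of -0.47 and -0.46. Over the lists together, 61 loci were tested. By limma, 0 of them were called in YAP-S94A,S127A against Control, where 0.0864% of all loci were higher and 0.093% lower. In YAP-S127A against Control, 1 (1.64%) was higher and 2 (3.28%) were lower, where 4.56% and 1.75% of all loci were. These counts are near the shares over all loci. An unadjusted p under 0.05 was found for 2 loci, IFNAR2 and IFNGR2, in YAP-S94A,S127A and for 10 in YAP-S127A. The share of all loci with one is not given. Without Control replicate 3, 11 (35.5%) of the further interferon-stimulated genes and 3 of the negative regulators were higher in YAP2SA, where 19.8% of all loci were, and the counts of lower loci in these lists and of both directions among receptors, kinases and STATs, and sensors and adaptors were as given above, as were those of YAP-S127A and YAP-S94A,S127A.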

How the data were processed

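RNA of 12 A375 libraries (4 lines, 3 platings each) was sequenced. The deposited table holds log2(FPKM + 1) values, 1 row per gene locus; per the submitters' processing notes and the methods, the authors used bcl2fastq 2.15.0, Bowtie2 2.0.0, TopHat2 2.0.4 and Cufflinks 2.0.2 with the hg19 assembly. The records give 24 h between plating and lysis, and the methods give a longer culture. Of 31588 entries, 3 identical ones were removed. Counts were not used here, so the depth is unknown and the precision rests on the spread between libraries. FPKM was recovered as 2 to the power of the deposited log2 value, minus 1.

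The deposited log2 values were fitted with limma 3.58.1 in R 4.3.3, with 1 mean per group over all 12 libraries and an intensity trend, for 6 comparisons. A locus entered the test when 3 or more libraries had an FPKM of 1 or above, and a call is a Benjamini-Hochberg adjusted p under 0.05 over all of them. The fit was tested on simulated data. Group spreads are SDs, and intervals are 95% intervals of the fit. A symbol was matched after splitting a locus at commas. All 41 members are named; values in all libraries are given for up to 22 members called in YAP2SA or YAP-S127A against Control, by smallest p, and for STAT2, IRF9, IRF1 and IRF7, the rest by group means; pathway genes are given as counts, and those called in YAP2SA against Control with means. The members and lists were chosen with earlier results of these data known. Of the pathway lists, 2 genes are not reported here. Promoters come from RefSeq (GRCh38.p14), without coordinates being moved between builds, and gene positions from GENCODE for GRCh37. Figures were drawn with matplotlib 3.10.9 in Python 3.11.15. Alternatives were another pseudocount (0.1), other filters, other scalings, a replicate block, a fit without the intensity trend, a fit restricted to the 6 libraries of a comparison and each library left out in turn; not counting TRIM22 was added after the data were seen.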

Additional observations from a re-analysis of the deposited data

How the results depend on the processing

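Between YAP2SA and Control, 17 to 21 members were higher and 7 lower under the other pseudocount, the filters, the scalings, the fit of 6 libraries, the replicate block and no intensity trend, and 16 to 19 were higher and 6 to 8 lower when 1 library was left out. When a ratio of group mean FPKM over 2 was added, counts of higher and lower members fell to 4 and 3 in YAP2SA against Control, 4 and 3 against YAP-S127A, 5 and 4 against YAP-S94A,S127A, and 0 and 0 in YAP-S127A against either Control or YAP-S94A,S127A. Of all 15055 loci, 7.59% and 7.86% passed both limits in YAP2SA against Control, and 311 and 61 loci in YAP-S127A against Control. The shares of all loci for the comparisons between mutants are not given. Members lower in YAP-S127A than in Control numbered 1 with a pseudocount of 0.1, no filter, quantile normalization or the replicate block, and 1 to 2 with 1 library left out, where the call lost was that of GBP2. In the fit of the 6 libraries compared, 0 were higher and 0 lower; fewer libraries then share the estimate of spread. With a pseudocount of 0.1 the members had a median log2 fold change of 0.342 in YAP2SA against Control, 0.303 against YAP-S127A and 0.388 against YAP-S94A,S127A, and 0.093 in YAP-S127A against YAP-S94A,S127A. Leaving out 1 library gave medians of 0.29 to 0.349 in YAP2SA against Control, 0.23 to 0.30 against YAP-S127A, 0.04 to 0.093 in YAP-S127A against Control and 0.043 to 0.094 against YAP-S94A,S127A; the cause was not tested. Median-ratio scaling and quantile normalization moved the median of all loci by -0.0347 to 0.0014. Of 84 single-gene calls over the 6 comparisons, 64 passed the threshold in every alternative, 20 missed it in at least 1 and 0 reversed. TRIM22 has no value under the filter on mean FPKM.

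The replicate numbers do not pair the libraries: deviations of libraries with the same number in different groups correlated at -0.149 to 0.163 (median 0.012), and those with different numbers at -0.119 to 0.188. With the replicate block, 17 members were higher in YAP2SA than in YAP-S127A and 4 were lower in YAP-S127A than in YAP-S94A,S127A, and the other counts of the block were as without it, apart from the 1 lower member given above. Depth is unknown, so how far it limits members under 1 FPKM cannot be given.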
